A study of Equus caballus with 6 samples.

Results

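Among the genes with an Ensembl identifier, 29 were abundant in the testis of every immature colt and at most 1/8 as high in every mature stallion. They were chosen from measured values of the same libraries. A gene had to have a CPM (counts of the gene per 1000000 counts of its library) of 100 or more in each of the 3 libraries taken before sexual maturation (BSM). It also had to have at least 10 counts in each of the 3 libraries taken after sexual maturation (ASM), with a CPM in each of them of at most 1/8 of the mean BSM CPM, and a length over 150 and under 9000 bp. The 29 genes came from 26991 Ensembl genes and from 58724 genes in the whole count table. Because the difference between the stages chose these genes, it is given for them as a description and supports nothing.

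The study sequenced poly(A) RNA from the testis of 6 Mongolian horses, a native breed of China. BSM1, BSM2 and BSM3 were from colts 11 to 13 months old, and the 3 ASM libraries were from stallions 3 to 4 years old. All 6 animals were healthy males with no treatment named in the labels, and no animal was sampled at both stages. Age was given as a range per stage, judged in part from the teeth, and each library was 1 mixture of all testis cell types from 1 animal.

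Before puberty the seminiferous cords hold Sertoli cells, the somatic cells that nurse the germ line, together with early germ cells, and the tissue between the cords holds Leydig cells, which make androgens, with fibroblasts, vessels and peritubular cells. At puberty the germ cells enter meiosis, and spermatocytes and spermatids come to fill the tubules and to supply much of the RNA of the organ. In a bulk library, fewer cells of a type and less RNA per cell of that type cannot be told apart. The deposited tables give identifiers without gene symbols, so the functions of the 29 genes, their chromosomes, their sequences and marker genes of the testis cell types were not analysed here, and 2 of the genes are named by identifier. The others are referred to by their place in the order of mean BSM FPKM, a level per unit of gene length.

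The libraries held between 14015484 and 19721986 counts on genes. Of the 1521 Ensembl genes with a CPM of 100 or more in every colt, 1473 lay inside the length limits. In 48 of these the mean ASM CPM was at most 1/8 of the mean BSM CPM, and in 29 this was true of every stallion. The other 19 of the 48 were lost because 1 or 2 stallions lay above the limit. The limit of 10 counts removed 0 genes, and the lowest ASM count among the 29 was 73. Of the abundant genes outside the length limits, 0 met the other limits. At the limit on the fall, the closest gene inside had its highest stallion at 12.3% of the mean BSM CPM and the closest gene outside at 12.7%. At the limit on abundance, the lowest colt value inside was a CPM of 106 and the closest one outside was 95.9.

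The 29 genes lie at the far end of a broad distribution. Among all 1473 abundant Ensembl genes, 229 had a ratio of the ASM mean to the BSM mean between 1/8 and 1/4, 446 a ratio between 1/4 and 1/2, 424 a ratio between 1/2 and 1, 239 a ratio between 1 and 2, and 87 a ratio over 2. No gap separates the 29 genes from the rest. The largest group of abundant genes, 30.3%, lay between 1/4 and 1/2 on this scale of library CPM.

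**Figure D1:**
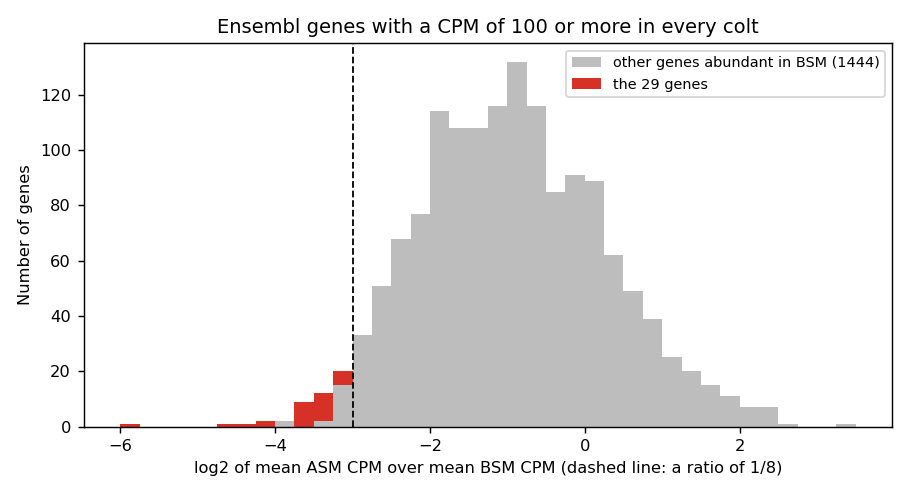
The number of Ensembl genes abundant in every colt (vertical axis) by the log2 of the mean ASM CPM over the mean BSM CPM (horizontal axis). The 29 genes (red) lie left of the dashed line at a ratio of 1/8, together with 19 of the 1444 other genes (grey), and ENSECAG00000017191 stands apart at the far left with a fold of 57.7.

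The genes took up a small but uneven part of the libraries. Together they held 1.04% of all gene counts in BSM1, 0.540% in BSM2 and 0.847% in BSM3. The mean of the colts was 0.810% ± 0.253 (SD, n = 3). The share was 0.0615% in ASM1, 0.0648% in ASM2 and 0.0629% in ASM3, and the mean of the stallions was 0.0630% ± 0.00165 (SD, n = 3). The 3 stallions, each capped by the rule, lay close together and the 3 colts were spread widely. The summed CPM was 12.8 times higher in the mean colt than in the mean stallion. For single colts it was 16.5 times higher in BSM1, 8.57 times in BSM2 and 13.4 times in BSM3, and without BSM2 the mean was 15.0 times higher.

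Per unit of length, these genes stood in the upper part of the ranking of the immature testis. FPKM, which divides the scaled count by the length of the gene, is the scale on which levels of different genes can be compared. The mean BSM FPKM of the 29 genes ran from 25.1 to 729 with a median of 97.1, and the mean ASM FPKM ran from 1.92 to 60.5 with a median of 7.59. For the other 1444 abundant genes the median of the mean FPKM was 101 in BSM and 62.4 in ASM. Ranked by mean FPKM among 20814 Ensembl genes with a count inside the length limits, 8 of the 29 genes were among the 500 highest in BSM, and 0 in ASM. Their ranks in BSM ran from 131 to 5121, and the median rank went from 1111 in BSM to 8717 in ASM. The rule sets a floor in the colts and a cap in the stallions, so this drop is in large part built in. The highest-ranking one in ASM stood at 2498, and each of the 29 still had at least 73 counts in every stallion. The order of levels among the 29 genes was largely kept, with a Spearman correlation of 0.91 between mean BSM and mean ASM FPKM across the genes. Both values of a gene share its length, the rule limits their ratio, and genes are not independent replicates.

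**Figure D2:**
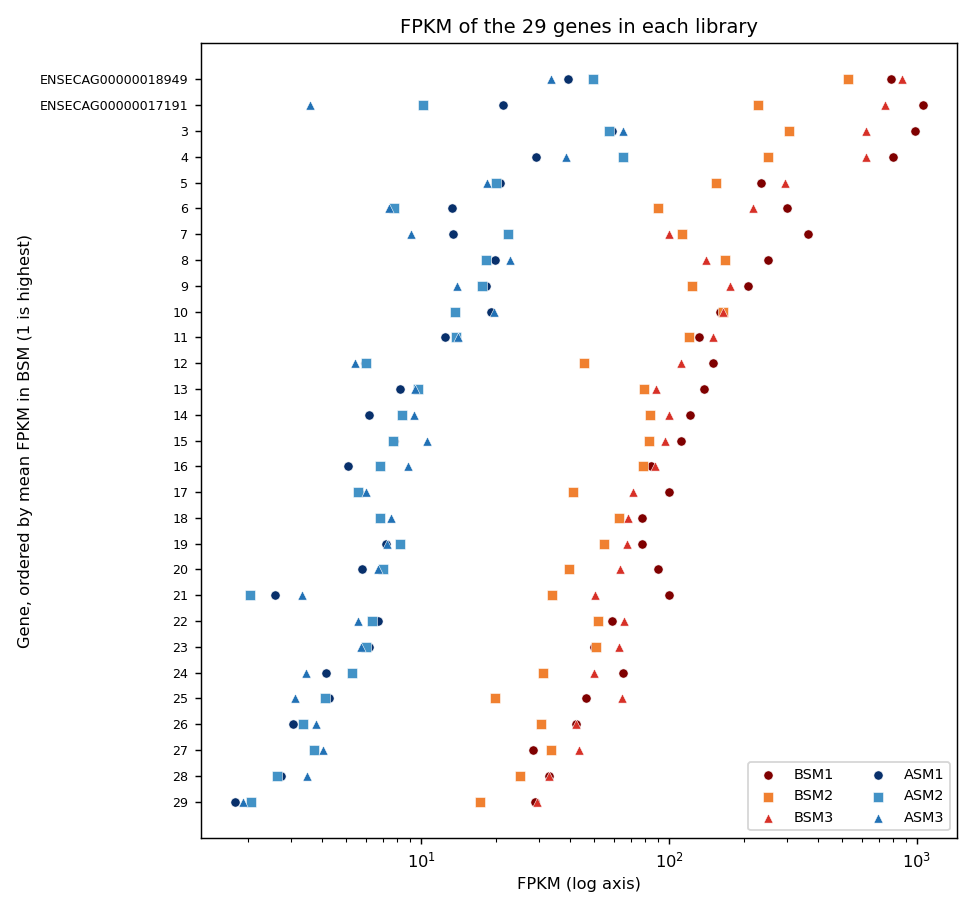
FPKM (horizontal log axis) of each of the 29 genes (vertical axis, ordered by mean BSM FPKM) in the 3 BSM libraries (red and orange) and the 3 ASM libraries (blue). In every row the colts lie to the right of the stallions, and in most rows BSM2 (orange square) is the colt nearest to them.

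ENSECAG00000018949, a gene with a length of 595 bp, had the highest mean BSM FPKM of the 29. It was not the highest in mean BSM CPM, at 434 against 807 for ENSECAG00000017191. Its FPKM in BSM1, BSM2 and BSM3 was 789, 526 and 872. In ASM1, ASM2 and ASM3 the FPKM was 39.2, 49.5 and 33.3. The underlying counts were 7342, 4980 and 7275 in the colts and 451, 581 and 341 in the stallions. All colts were far above all stallions, and the lowest colt was 10.6 times higher than the highest stallion in CPM. The colts had a mean FPKM of 729 ± 181 (SD, n = 3) and the stallions one of 40.7 ± 8.19 (SD, n = 3), and the fold between the mean CPM values was 17.9. It stood at rank 131 in BSM and at rank 3478 in ASM. The log2 fold change fitted by edgeR after TMM scaling was -3.71 with a standard error of 0.26.

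ENSECAG00000017191, with a length of 1195 bp, had the largest fall. In BSM1 its FPKM was 1058, against 228 in BSM2 and 739.8 in BSM3. The stallions had an FPKM of 21.3, 10.2 and 3.55, in the order of their numbers. The counts ran from 4330 to 19774 in the colts and from 73 to 493 in the stallions, so depth did not limit these values. The stages did not overlap, but the gene had the widest ratio of the highest to the lowest animal of the 29 within both stages, at 4.65 among colts and 6.00 among stallions. Its coefficient of variation (SD over mean) of CPM was 62.0% among colts, below the 77.2% of the gene at place 7. The mean CPM was 57.7 times higher in BSM, whereas the lowest colt was 10.7 times higher than the highest stallion. The fitted log2 fold change was -5.41 with a standard error of 0.84, and it was -6.08 without ASM1, a change of more than 1.5 times in the fold. Without ASM3 it was -4.85. The direction was the same whichever library was left out.

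The genes next in the order show how differently the level could be spread within a stage. The third gene (652 bp) had an FPKM of 984, 306 and 620.4 in BSM1, BSM2 and BSM3 and of 58.9, 57.2 and 65.4 in ASM1, ASM2 and ASM3. The stallions were nearly level, and the colts differed by a factor of 3.22. The fourth gene (519 bp) had an FPKM of 804, 249.8 and 625 in the colts. In the stallions it rested on 291 counts in ASM1, 665 in ASM2 and 344 in ASM3. In CPM, ASM2 was 2.24 times higher than ASM1, and the lowest colt was 3.85 times higher than the highest stallion, the narrowest margin among the 29.

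A further contrast was between genes with a steady and with an uneven level in the colts. The tenth gene (2049 bp) was almost the same in all colts, with a CPM of 330.3, 338 and 339.8, and had a CPM of 39.1, 28.1 and 40.4 in the stallions. The seventh gene (1230 bp) was high in BSM1 alone, with a CPM of 447 there against 139 in BSM2 and 123 in BSM3, and had a CPM of 16.5, 27.6 and 11.2 in the stallions. In the gene at place 25 (5375 bp) BSM3 was highest, with a CPM of 250 in BSM1, 107 in BSM2 and 348 in BSM3. Its stallions had a CPM of 22.9, 22.1 and 16.7. The gene with the smallest fall (place 19, 3942 bp) had a CPM of 308, 216 and 268 in the colts and of 28.6, 32.3 and 28.8 in the stallions, a fold of 8.82 between the means. The longest gene (place 28, 7529 bp) had a CPM of 248, 189 and 247 in the colts and of 20.6, 19.8 and 26.2 in the stallions, a fold of 10.3.

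Over all 29 genes, the mean CPM was between 8.82 and 57.7 times higher in BSM, with a median of 11.3 and quartiles of 9.87 and 12.8. The lower end is set by the rule. In 9 genes the fold was under 10, in 11 it was 12 or more, in 5 it was 16 or more and in 3 it was 20 or more. The 3 were ENSECAG00000017191, the gene at place 21 (3170 bp) with a fold of 23.2 and the gene at place 6 (1571 bp) with a fold of 21.3. In all 29 genes every colt was above every stallion, with the lowest colt between 3.85 and 10.7 times higher than the highest stallion. The same order without overlap was found in 45.7% of the genes tested and in 71.9% of the 1473 abundant Ensembl genes. In edgeR's quasi-likelihood test on the whole table, all 29 had an adjusted p-value under 0.05 and were lower in ASM, as were 36.0% of the 32954 genes tested and 55.1% of the abundant Ensembl genes. Since the rule used this contrast, nothing is read from these counts.

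How large the fall appears depends on how the libraries were scaled. CPM divides by the total of each library, and in the stallions 14.8% ± 0.397 (SD, n = 3) of that total went to 384 Ensembl genes of the opposite kind. These had a CPM of 100 or more in every stallion, at least 10 counts in every colt, a CPM in each colt of at most 1/8 of the mean ASM CPM, and the same length limits. In the colts the 384 genes held 0.665% ± 0.325 (SD, n = 3). The other 1444 genes abundant in the colts held 49.0% ± 1.73 (SD, n = 3) in the colts and 29.6% ± 0.270 (SD, n = 3) in the stallions. What part either set had in the effect of the scaling was not tested. TMM scaling assumes that most genes do not differ between libraries. It gave a median log2 fold change of -3.05 for the 29 genes, against a median of 0.06 for all genes tested. In that fit edgeR's quasi-likelihood test called 25515 of the 32954 genes tested, 11871 lower and 13644 higher in ASM. Most genes were thus called different, and which scaling is nearest to the truth was not tested. With library size as the only scaling the medians were -3.50 and -0.40. A fold of 8 or more was reached by 17 of the 29 genes in the TMM fit, by 11 with DESeq2 size factors and by 29 with library size. Of all 32954 genes tested, 1883, 1637 and 2984 fell as far in these fits. The direction was the same for each of the 29 genes in all 3 scalings. When the rule itself was applied to CPM on TMM-scaled library sizes, 6 genes met it, all of them among the 29.

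The spread among colts, which the rule did not use directly, lay for these genes between that of other abundant genes and that of genes abundant in the stallions. The coefficient of variation of CPM over the 3 colts had a median of 26.9% for the 29 genes, with quartiles of 14.8% and 50.5%. For the other 1444 abundant Ensembl genes the median was 9.93%, with quartiles of 6.05% and 17.1%, and for the 384 genes abundant in the stallions it was 57.7%. The highest colt was at least 2 times above the lowest in 11 of the 29 genes, or 37.9%, against 4.22% of the other abundant genes and 82.8% of the 384 genes. Between BSM1 and BSM3 alone such a difference was found in 1 of the 29 genes, or 3.45%, in 0.762% of the other abundant genes and in 72.4% of the 384 genes, so the count of 11 rests on BSM2. The spread was a median of 15.3 times the one that Poisson counting alone would give, and the lowest value was 1.07 times at place 10, where the colts differed little beyond counting error. With 3 colts no test of this difference was made, and the rule bears on the spread in part, since its limit is a share of the mean of the colts. Without BSM2 the median coefficient of variation was 16.3% for the 29 genes, 7.99% for the other abundant genes and 65.6% for the 384 genes.

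Among the stallions the median coefficient of variation of CPM of the 29 genes was 11.8%, with quartiles of 6.94% and 20.5%. It was 7.52% without ASM3 and 8.73% without ASM1. The other 1444 abundant genes, whose ASM counts had a median of 2160.3 against 363 for the 29, had a median of 6.98%, and 5246 other Ensembl genes with ASM counts in the range of the 29 had a median of 10.8%. In 23 of the 29 genes, or 79.3%, the coefficient of variation was larger among colts than among stallions. The same was true of 63.9% of the other abundant genes and of 60.2% of the 5246 genes, so a smaller spread among stallions was common to these sets. The highest stallion was less than 1.5 times above the lowest in 21 genes and 2 times or more above it in 3 genes. The highest value was in ASM1 for 7 genes, in ASM2 for 9 and in ASM3 for 13. The lowest was in ASM1 for 9 genes, in ASM2 for 9 and in ASM3 for 11. ASM3 was highest in 44.8% of the 29 genes and in 28.7% of the other abundant genes. The rule caps each stallion, and 19 genes were lost because 1 or 2 stallions lay above the limit. It thus limits the spread among stallions that the 29 genes can show. The spread was a median of 2.35 times the Poisson counting error, with a lower quartile of 1.35 times. Only for the genes at the low end did it lie near the resolution of these counts.

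The 3 colts had an order that was shared by many of the genes. BSM2 was the lowest colt in 24 of the 29 genes and the highest in 0, while BSM1 was highest in 18 and BSM3 in 11. The order BSM1 above BSM3 above BSM2 was found in 16 genes, and BSM3 above BSM1 above BSM2 in 8. Among the other 1444 abundant genes BSM2 was lowest in 28.9% and highest in 46.7%. The median ratio of BSM1 to BSM2 was 1.52 for the 29 genes and 0.96 for the others, and the median ratio of BSM3 to BSM2 was 1.38 against 0.97. Under TMM scaling BSM2 was lowest in 25 of the 29 genes and highest in 0, against 35.6% and 34.7% of the other genes. The place of the other colts moved with the scaling, since BSM1 was highest in 23 genes and BSM3 in 6 with TMM, and BSM1 in 22 and BSM3 in 7 with DESeq2 size factors.

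In 11 genes BSM1 was at least 2 times higher than BSM2, and in 6 of them BSM3 was as well. The gene at place 12 (5493 bp) had a CPM of 826 in BSM1, 250.1 in BSM2 and 613 in BSM3, while its stallions were level at 32.7, 33.0 and 29.8. The gene at place 6 had a CPM of 470.5, 142 and 342 in the colts and of 21.0, 12.2 and 11.6 in the stallions. In both, the colts differed by a factor of 3.30 and the stallions by less than 2 times. The gene at place 21 had a CPM of 316, 107 and 159 in the colts and of 8.17, 6.49 and 10.5 in the stallions, so that BSM3 lay nearer to BSM2 than to BSM1. The gene at place 17 (3383 bp) had a CPM of 338, 139 and 242, and that at place 20 (4487 bp) one of 403, 177 and 285. The stallions lay between 18.9 and 20.4 in the former and at up to 31.5 in the latter.

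In 5 genes BSM2 was not the lowest colt. BSM1 was lowest at place 10, where the colts were nearly level, at place 23 (2270 bp) with a CPM of 114, 115 and 143, and at place 27 (3753 bp) with 106, 126 and 162. BSM3 was lowest at place 7 and at place 8 (1353 bp), where the CPM was 341, 228 and 191 in the colts and 26.8, 24.7 and 31.1 in the stallions. These genes had folds between the stages from 9.14 to 12.8, inside the range of the other 24. The 12.8 was at place 7 and rests on BSM1, since the fitted log2 fold change there was -3.26 with all libraries and -2.49 without BSM1. At places 16 (2022 bp) and 18 (2331 bp) BSM2 was lowest by a small margin, with a CPM of 171, 159 and 178 and of 182, 146 and 159 in the colts. Across the 29 genes the fold between the stages had a Spearman correlation of 0.61 with the ratio of the highest to the lowest colt, and both measures share the libraries of the colts.

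Across the abundant genes the position of BSM2 moved with the change between the stages. Among the 48 genes with an ASM to BSM ratio of at most 1/8, BSM2 was the highest colt in 0 and the lowest in 81.2%. It was the highest in 22.3% of the genes with a ratio between 1/8 and 1/4, in 40.8% between 1/4 and 1/2, in 48.8% between 1/2 and 1, in 67.4% between 1 and 2 and in 85.1% of those over 2. BSM1 went the other way, from 60.4% of the genes at the low end to 3.45% at the high end. The values of the colts set both the order of the colts and the class of a gene, so the 2 are not independent. The classes were formed on library CPM only. Over the other 1444 abundant genes BSM2 was highest in 46.7% with library CPM and in 34.7% with TMM scaling. These shares describe 3 animals and many genes measured in the same libraries, and they were not tested.

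**Figure D3:**
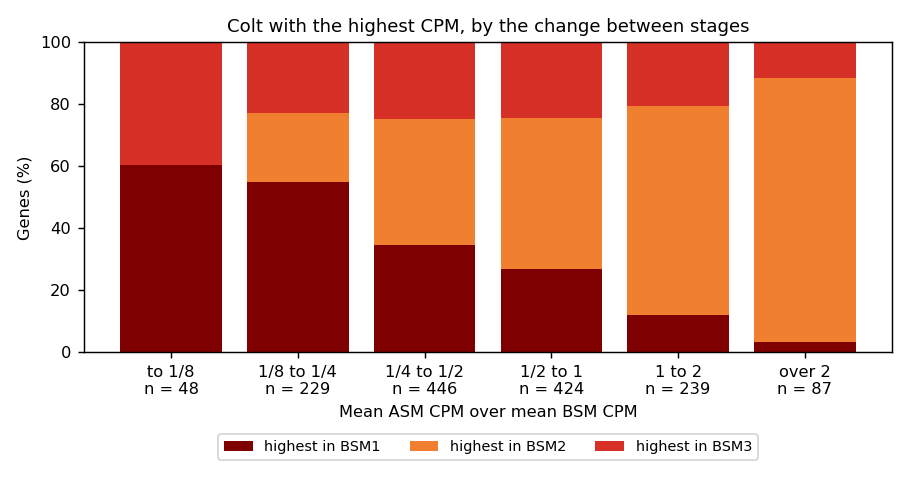
The percentage of abundant Ensembl genes (vertical axis) whose highest CPM was in BSM1, BSM2 or BSM3, in 6 classes of the ratio of the mean ASM CPM to the mean BSM CPM (horizontal axis, with the number of genes). BSM2 goes from 0 of 48 genes in the leftmost class to 85.1% of 87 genes in the rightmost, and the leftmost class holds the 29 genes. The values of the colts enter both axes.

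The 384 genes that were abundant in the stallions and low in the colts had the opposite order in the colts. Their summed CPM was 3216 in BSM1, 9682 in BSM2 and 7059 in BSM3, and it was between 144717 and 152585 in the stallions. BSM2 was the highest colt in 344 of them, or 89.6%, and BSM1 the lowest in 372, or 96.9%. The 29 genes had a summed CPM of 10425 in BSM1, 5400 in BSM2 and 8470 in BSM3. The colt with the least of the 29 genes was thus the colt with the most of the 384 genes, and the reverse was true of BSM1. The order of the colts was the same for both sets with TMM scaling and with DESeq2 size factors. In the colts the 384 genes took between 0.322% and 0.968% of the counts. What part these genes or the cells that carry them had in the order of the colts was not tested.

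**Figure D4:**
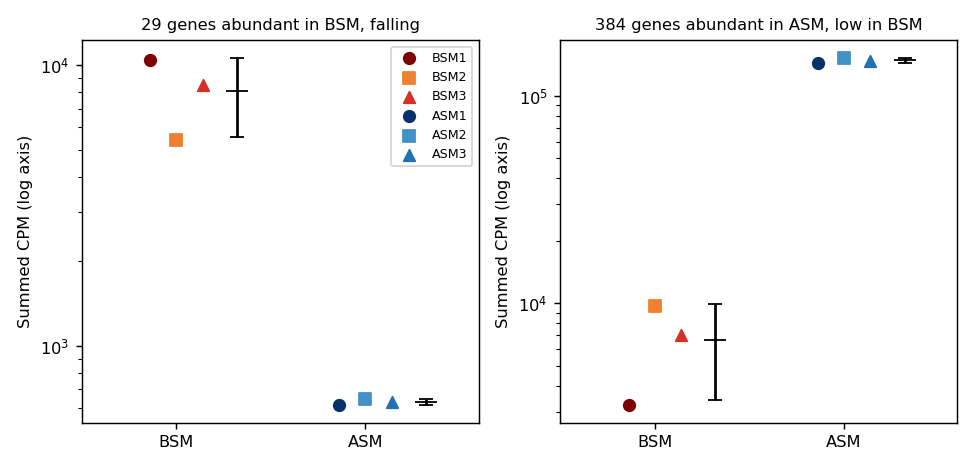
Summed CPM (log axis) of the 29 genes (left) and of the 384 genes abundant in ASM (right) in each library, with the mean and SD of each stage in black. BSM2 is lowest of the colts on the left at 5400 and highest on the right at 9682, and the 3 stallions lie close together in both panels.

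When each colt was set against the mean of the stallions, 28 of the 29 genes were at least 8 times higher in BSM1, 27 in BSM3 and 18 in BSM2. The fold in BSM2 alone had a median of 8.52 and ran from 5.05 to 19.5. In 12 genes even the lowest colt was at least 8 times above the highest stallion, and no other of the 1473 abundant genes met that limit. The rule had already set the mean of these colts at 8 times or more above each stallion. These counts therefore describe the choice of the genes and support nothing. Shares over the other abundant genes are not given for single colts. When BSM2 was left out of the rule, 64 Ensembl genes met it in place of 29, and these 64 included all 29. Without BSM1 it was met by 26 genes, 22 of them among the 29, and without BSM3 by 30 genes, 27 of them among the 29. When 1 stallion was left out, between 32 and 42 genes met it, with all 29 included each time.

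In length, which the rule limited but did not otherwise use, the 29 genes ran from 519 to 7529 bp. The median was 2331 bp with quartiles of 1353 and 4470 bp, against a median of 1880.5 bp with quartiles of 1036 and 3332.5 bp for the other abundant genes. The ranges overlapped broadly, and 5 of the 29 genes were under 1000 bp while 8 were 4000 bp or longer. The 5 genes under 1000 bp held places 1, 3, 4, 5 and 9 in the order of BSM FPKM, in which a short gene stands higher at the same CPM. The fold between the stages had a Spearman correlation of -0.10 with length across the 29 genes.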

How the data were processed

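The authors aligned clean paired-end reads to the Ensembl horse genome with TopHat2 2.0.12 and Bowtie2 2.2.3 (versions per the labels), assembled further transcripts with Cufflinks and counted reads per gene with HTSeq 0.6.1. The Ensembl release and the strand and overlap settings of the counting are not given in the sources used here, so overlapping or near-identical genes are uncertain. The deposited counts are raw whole numbers. The authors computed the deposited FPKM from count, gene length and library total, and these gave a whole-number length within 1e-06 bp for 100% of the values. The sample titles of the mature animals differ from their column names, so the ASM columns were used as the replicates of that stage, and ASM1 to ASM3 are column names. Replicates of a stage are separate horses and differed by more than sampling noise (chi-square per degree of freedom at least 13.2).

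CPM used column totals. Log2 fold changes came from edgeR 4.0.16 in R 4.3.3 on all 6 libraries (filterByExpr defaults, TMM, quasi-likelihood F test, stage as the only term, Benjamini-Hochberg adjustment over 32954 genes, threshold 0.05). Standard errors are the fold change divided by the square root of F. The fits were tested on simulated data, in which edgeR recovered 158 of 200 changed genes and called 9 unchanged ones. As many genes were raised as lowered there and most were unchanged, so it could not check the scaling between these stages. Alternatives were DESeq2 1.42.0, limma 3.58.1 on log2(FPKM + 1) and log2(FPKM + 0.1), other scalings, filters and limits of the rule, a block for the library number, and fits without 1 of the libraries. A floor of 3 counts was worth 0.152 to 0.214 CPM, which covers counting error alone.

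The reference table lists 39335 genes of another assembly, 0 of them with an Ensembl horse identifier, so gene symbols, coordinates, sequences and the marker lists were not used. The genes named were the one with the highest mean BSM FPKM and the one with the lowest ratio of mean ASM to mean BSM CPM. Other genes described by their place in the order were picked after their values were seen. The 29 genes and the comparisons were chosen with earlier results of these data known.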

Additional observations from a re-analysis of the deposited data

How the results depend on the processing

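The number of genes that met the rule, 29, moved most with its limits and scaling. It was 6 with CPM on TMM-scaled library sizes, 5 with DESeq2 size factors, 70 with a CPM of 50 or more in each colt, 8 with 200 or more, 229 with a limit of 1/4 and 3 with 1/16. With each stallion held to 1/8 of the lowest colt, an alternative chosen after seeing the data, it was 12. A lower or higher limit admits more or fewer genes by construction, and both other scalings made the BSM libraries larger and the ASM libraries smaller. It ranged from 26 to 64 when 1 library was left out. Without a minimum count, without a limit on length, or with the ratio on FPKM it was 29.

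All 29 genes were lower in ASM with an adjusted p-value under 0.05 in edgeR, DESeq2 and limma under every alternative fit, in which between 23.3% and 44.4% of all genes with an adjusted p-value were lower. The contrast chose the 29 genes, so nothing is read from this. Their median log2 fold change, -3.05, was between -3.50 (library size only) and -2.89 (DESeq2) and ranged from -3.22 to -2.89 when 1 library was left out. For ENSECAG00000018949 it was -4.16 with library size only, against -3.71. The library numbers do not pair animals, since no animal was sampled at both stages. Deviations of libraries with the same number correlated between -0.07 and 0.05. No values for libraries with different numbers stand beside these, so a batch shared by number was not tested. With the library number as a replicate block the median was -3.02 with 29 genes called.

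The share of counts in ASM was 0.0711% of Ensembl counts alone. The median ASM level was 8.71 as TPM. The median coefficient of variation ranged from 16.3% to 29.2% among colts and from 7.52% to 11.4% among stallions when 1 library was left out. BSM3 was the highest colt in 6 genes with TMM scaling and in 7 with DESeq2 size factors. The cause was not tested. The other 84 recomputed values kept their call or stayed within 1.5 times a count or 1 SD.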

Other observations

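Genes that the authors assembled outside the Ensembl annotation can meet the same CPM and count limits. With no limit on length, 94 assembled genes had a CPM of 100 or more in every colt, and 8 of them, or 8.51%, were at most 1/8 as high in every stallion, against 1.97% of the abundant Ensembl genes, for which the length limits also held. Their folds between the mean CPM of the stages had a median of 12.3 and reached 42.6, and their lengths from 953 to 12743 bp. Their summed CPM was 2883 in BSM1, 1891 in BSM2 and 4969 in BSM3, and between 182 and 228 in the stallions. BSM2 was the lowest colt in 5 of the 8 and the highest in 1, so the lowest colt of the summed level was the same as for the 29 Ensembl genes, whereas the highest was BSM3 and not BSM1. These genes have no sequence or position in the tables, and whether some of them are parts of annotated genes was not tested.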
